A study of Mus musculus with 20 samples.

Results

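The STAT transcription factors Stat2, Stat3, Stat4, Stat5a, Stat5b and Stat6, the kinase Jak1, the receptor subunit Il6st and the inhibitor Socs3 were followed through early mouse embryos that had received an siRNA against P300, the histone acyltransferase encoded by Ep300. These 9 genes were taken by symbol from the 25208 genes of the count table. They were chosen by pathway, with earlier results of the same siRNA comparisons known, so the p-values below describe single genes. All 9 passed the filter on low counts, as did 16603 genes in all. The 20 RNA-seq libraries, made from embryos of WT genotype cultured from the zygote, form 10 groups of 2. At the late 8-cell stage the groups are P300 siRNA with I1394G, P300 siRNA with NaCr, P300 siRNA alone, and control. At the late 2-cell, 4-cell and early 8-cell stages they are P300 siRNA and control. The embryos of the I1394G and NaCr groups also carry the siRNA. The labels spell out neither name. I1394G was taken to be an amino acid change in p300, and NaCr to be sodium crotonate, a precursor for the crotonylation of histones. The strain, the number of embryos in a library and what the control embryos received are not given in the labels.

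Cytokines such as LIF, interleukins and interferons bind receptors that have no enzyme activity of their own and rely on JAK kinases attached to their tails. The kinases phosphorylate the receptor, STAT proteins dock there, are phosphorylated in turn and move as dimers to the nucleus, where SOCS genes are among their targets and shut the pathway down. In the mouse, signalling from LIF through Il6st and Stat3 is known for maintaining naive pluripotency in embryonic stem cells.

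Values are CPM, counts scaled by TMM library size, for a gene across libraries, and deposited FPKM, which are also scaled by transcript length, where levels of different genes are set side by side. Changes are log2 fold changes ± SE from edgeR's two-sided quasi-likelihood test with Benjamini-Hochberg adjustment over all 16603 genes, and a call is an adjusted p under 0.05. Total counts per library lay between 3202332 (P300 siRNA late 8-cell replicate 1) and 24785201 (I1394G replicate 2). The labels do not say whether the libraries of a group came from separate embryo pools, so the p-values measure the spread between these libraries, which may be technical. In bulk libraries, fewer cells expressing a gene and less RNA per cell cannot be told apart. Ep300 itself passed as lower with P300 siRNA in 4-cell embryos (-2.15 ± 0.37, adjusted p = 0.00128) and in early 8-cell embryos (-2.15 ± 0.37, adjusted p = 0.000819). At the late 2-cell stage it was below the controls without overlap but did not pass (-1.69 ± 0.37, adjusted p = 0.318). At the late 8-cell stage the groups overlapped (-0.36 ± 0.37, adjusted p = 0.4997), so Ep300 does not check the siRNA label there. Ep300 averaged 15.5 CPM in I1394G embryos, against 14.7 CPM with P300 siRNA alone and 18.6 CPM in controls. Its counts therefore do not check the reading of I1394G either. The labelled embryo origin was met by its markers in that all 10 preimplantation genes listed (Pou5f1 and Dppa3 among them) had counts in every group. Cumulus and granulosa cell markers summed to 22.6 to 74.3 CPM per library, most of it Amhr2 (group means of 23.9 to 62.5 CPM). Fibroblast markers summed to 0.853 to 16.1 CPM and red blood cell markers to 0 to 2.12 CPM.

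Of the 9 genes, 0 passed at the late 2-cell stage in P300 siRNA against control embryos, where 0.00602% of all genes passed (1 gene, with 689 at an unadjusted p under 0.05, 0 of them among the 9). At the 4-cell stage 3 passed, Stat6 higher (a difference known beforehand) and Stat3 and Socs3 lower, beside 15.0% of all genes. At the early 8-cell stage 2 passed, Stat6 higher and Stat2 lower, beside 16.5% of all genes. At the late 8-cell stage 4 passed, Stat4 and Il6st higher and Stat5a and Stat6 lower, beside 28.0% of all genes. The median log2 fold change of the 9 genes was -0.17, -0.42, -0.25 and -0.34 at the 4 successive stages, against -0.04, 0.00, 0.04 and 0.06 over all genes tested. Tested jointly over the 4 stages, the siRNA effect differed between stages for 3 of the 9 genes, Stat4, Stat5a and Stat6, beside 16.3% of all genes. The joint call on Stat6 (adjusted p = 8.43e-06) was made under all 23 alternatives run, with an adjusted p of at most 0.0223. It uses the 4-cell values of Stat6, which were known when the genes were chosen. The call and its repeats are therefore no independent support.

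**Figure D1:**
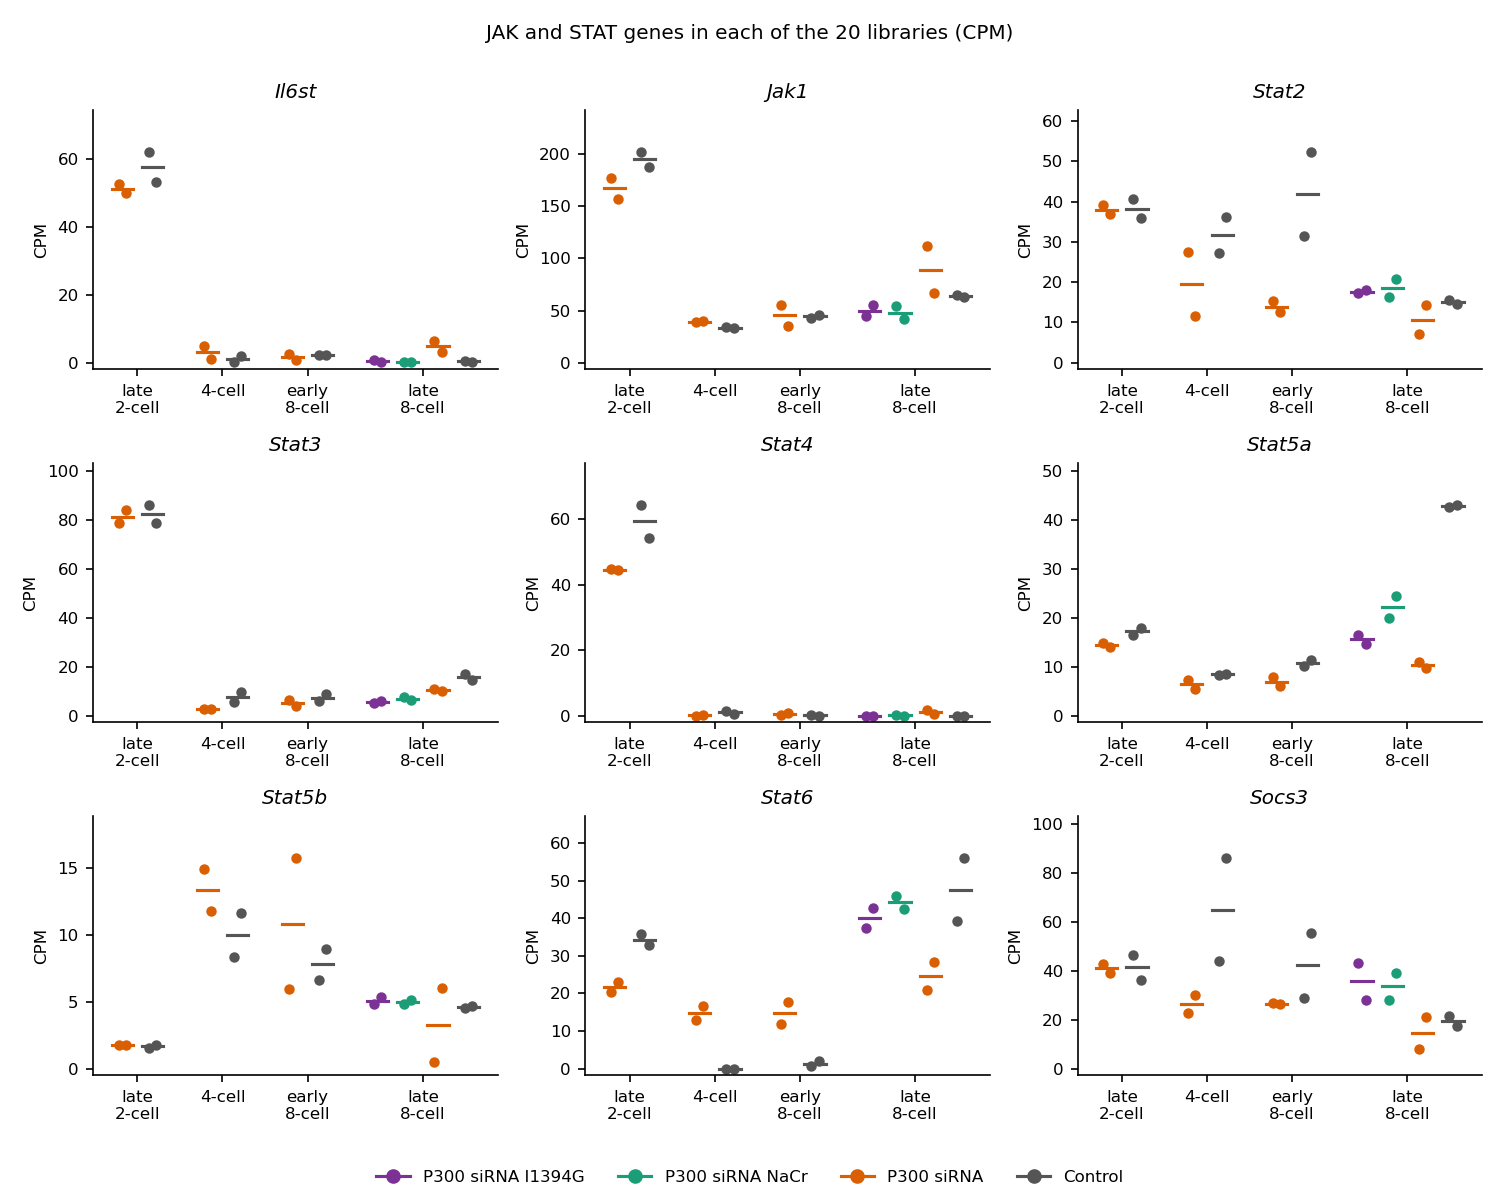
CPM of each of the 9 genes (y axis, linear, its own range per gene) in the 20 libraries, by stage (x axis). Points are libraries and bars are means of 2 libraries. Stat6 is at 0 in the 4-cell controls and between 13.0 and 16.7 CPM in the 4-cell P300 siRNA libraries, and Il6st, Jak1, Stat3 and Stat4 are highest at the late 2-cell stage.

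The course of the pathway in control embryos sets the background for these comparisons. In the numbering of the samples, the late 2-cell libraries stand apart from all others. Whether they were prepared separately is not given in the labels. In every comparison with the late 2-cell stage, such a difference could not be told apart from the stage. Between the late 2-cell and 4-cell stages 7 of the 9 genes passed, 6 lower and 1 higher at the 4-cell stage, beside 61.2% of all genes. The median change over all genes was -0.40 on the log2 scale, and -0.65 with DESeq2 size factors, and the directions named here were the same under both scalings. Il6st, the subunit shared by the receptors of LIF and IL-6, had 62.2 and 53.2 CPM in the late 2-cell controls, 0.103 and 1.83 CPM at the 4-cell stage, 2.17 and 2.24 CPM at the early 8-cell stage and 0.462 and 0.331 CPM at the late 8-cell stage. Jak1, the kinase that works with Il6st and with interferon receptors, had 202 and 188 CPM, 33.8 and 32.9 CPM, 42.9 and 46.1 CPM, and 64.8 and 63.0 CPM at the same stages. Stat3, the main effector of Il6st, had 86.1 and 78.9 CPM, 5.78 and 9.76 CPM, 5.91 and 8.79 CPM, and 17.1 and 14.5 CPM. All 3 genes therefore stood far below the late 2-cell level at every later stage, with no overlap between the libraries. The changes from the late 2-cell to the 4-cell stage were -5.70 ± 0.79 for Il6st, -2.55 ± 0.27 for Jak1 and -3.39 ± 0.34 for Stat3. Stat4, which relays IL-12 signals in T cells, had 64.4 and 54.4 CPM at the late 2-cell stage and at most 1.55 CPM in any later control library (-5.92 ± 0.81 to the 4-cell stage). Stat5a, a relay of prolactin and other cytokine signals, fell by 1.02 on the log2 scale (adjusted p = 0.00598). This call was not made with only the late 2-cell and 4-cell control libraries in the fit (-0.91, adjusted p = 0.0624).

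Stat5b, a close relative of Stat5a with overlapping roles, was the 1 gene of the 9 called higher at the 4-cell than at the late 2-cell stage. It had 8.36 and 11.6 CPM at the 4-cell stage against 1.54 and 1.77 CPM at the late 2-cell stage (2.59 ± 0.66, adjusted p = 0.00265). Socs3 had 43.9 and 86.0 CPM at the 4-cell stage against 46.6 and 36.1 CPM at the late 2-cell stage and was not called (0.65 ± 0.40), but passed without 4-cell control replicate 1 (1.11, adjusted p = 0.0363). The transcripts of Stat5a and Stat5b in the reference share 10.8% and 11.8% of their 50-base words, so reads from these stretches could be split between the genes, and their values are uncertain to that extent. Between the 4-cell and early 8-cell stages 1 of the 9 genes passed, Stat6, beside 1.13% of all genes. Between the early and late 8-cell stages 5 passed, beside 26.2% of all genes. In these last controls Stat6, Stat5a and Stat3 rose, and Stat2 and Il6st fell. Stat5a had 42.6 and 43.0 CPM in the late 8-cell controls against 10.1 and 11.4 CPM in the early 8-cell controls (1.99 ± 0.30, adjusted p = 0.000145). For Stat3 (1.10 ± 0.32, adjusted p = 0.0166) the call was lost without early 8-cell control replicate 1 (0.83) and without late 8-cell control replicate 1 (0.98) or 2 (1.23), and for Il6st (-2.44 ± 0.83, adjusted p = 0.0374) without any 1 of the 4 libraries (-2.22 to -2.70). Socs3 missed the threshold (-1.12 ± 0.41, adjusted p = 0.0511) and passed without early 8-cell control replicate 1 (-1.53, adjusted p = 0.0211) and with DESeq2 (-1.19, adjusted p = 0.0199).

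**Figure D2:**
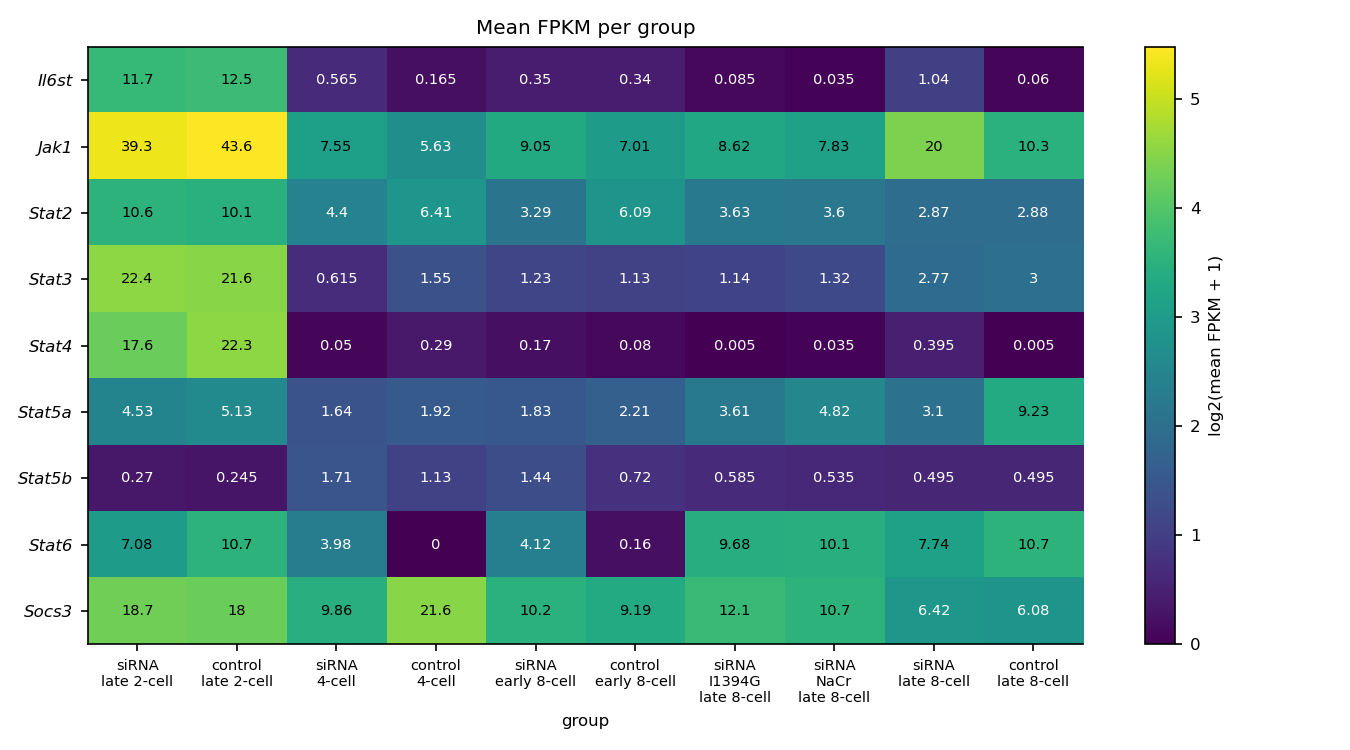
Mean deposited FPKM of the 9 genes (rows) in the 10 groups (columns), with colour on the scale log2(mean FPKM + 1). Jak1 has the highest level in late 2-cell embryos (39.3 FPKM with P300 siRNA and 43.6 FPKM in controls), and Stat4 and Il6st are at 0.565 FPKM or less in all later groups except Il6st in P300 siRNA late 8-cell embryos (1.04 FPKM); the early 8-cell control column is 1 library.

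Per length of transcript, the order of the genes changed with stage. In late 2-cell controls Jak1 was highest, with 41.9 to 45.2 FPKM, followed by Stat4 (20.4 to 24.3 FPKM) and Stat3 (20.6 to 22.6 FPKM), whose ranges overlapped. Stat5b was lowest, with 0.23 and 0.26 FPKM. In 4-cell controls Socs3 was highest (13.9 and 29.3 FPKM) and Stat6 was listed at 0 in both libraries. In late 8-cell controls Stat6 (8.84 and 12.6 FPKM), Jak1 (10.2 and 10.5 FPKM) and Stat5a (9.21 and 9.25 FPKM) were at the top and did not differ beyond the spread of Stat6. In late 8-cell P300 siRNA embryos Jak1 stood above the rest, with 15.1 and 24.9 FPKM, and Stat5a was at 2.96 and 3.23 FPKM. The FPKM column of early 8-cell control replicate 2 did not match its counts (log2 correlation 0.888 after allowing for gene length, against 0.994 or more in the other 19 libraries), and its FPKM values are left out here. Which of its columns is right, counts or FPKM, cannot be told. The edgeR and DESeq2 comparisons with early 8-cell controls rest on the counts being right.

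Stat6, the STAT of IL-4 and IL-13 signalling, differed in opposite directions at different stages. In late 2-cell embryos it had 20.3 and 23.1 CPM with P300 siRNA against 35.8 and 32.9 CPM in controls, without overlap but without a call (-0.66 ± 0.34, adjusted p = 1). In 4-cell embryos it had 93 and 274 counts (13.0 and 16.7 CPM) with P300 siRNA and 0 counts in both controls, at total counts of 11216749 and 23482681. That is at least 156-fold higher in P300 siRNA embryos, taking 3 counts over the 2 controls as the limit of detection, a bound that covers counting error only. The difference was known when the genes were chosen and is given as a description. In early 8-cell embryos Stat6 had 138 and 154 counts (12.0 and 17.7 CPM) with P300 siRNA against 7 and 22 counts (0.689 and 1.97 CPM) in controls, and the groups did not overlap (3.45 ± 0.42, adjusted p = 5.11e-05). At this stage the unmatched FPKM column of control replicate 2 lists Stat6 at 3.50 FPKM, between the 3.30 and 4.93 FPKM of the P300 siRNA libraries. A limma fit on log2(FPKM + 1) that used that column gave 1.14 (adjusted p = 0.207), whereas the call was made without it. In late 8-cell embryos the direction was the opposite, with 21.0 and 28.3 CPM with P300 siRNA against 39.2 and 56.0 CPM in controls. That difference (-0.94 ± 0.34, adjusted p = 0.0497) was barely past the threshold and was lost without any 1 of the 4 libraries (-0.67 to -1.19) and with DESeq2 size factors (-0.80, adjusted p = 0.0890) or on log2(FPKM + 1) (-0.42). The FPKM fit applies no TMM scaling.

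Along the stages, Stat6 went through a trough in control embryos. In controls it was at least 361-fold lower at the 4-cell stage than at the late 2-cell stage. It was at least 14.0-fold higher at the early 8-cell stage than at the 4-cell stage, and rose again to the late 8-cell stage (5.13 ± 0.43, adjusted p = 2.09e-06). In P300 siRNA embryos the 8 libraries of the 4 stages spanned 12.0 to 28.3 CPM, with no library near 0. Tests that include the 4-cell stage use Stat6 values known beforehand, so they are descriptions. The siRNA effect on Stat6 differed between the 4-cell and late 2-cell stages (adjusted p = 9.36e-06) and between the late and early 8-cell stages (-4.39 ± 0.54, adjusted p = 0.000669). The second of these was lost on log2(FPKM + 1) (-1.56, adjusted p = 0.140) and log2(FPKM + 0.1) (-2.56, adjusted p = 0.187), which use the unmatched column. The effect did not pass as different between the early 8-cell and 4-cell stages (adjusted p = 0.0980), where 0 genes passed in all with edgeR, 1265 had an unadjusted p under 0.05 and DESeq2 called Stat6 (adjusted p = 0.0160). It also passed without control replicate 1 or P300 siRNA replicate 2 of the 4-cell stage, and without control replicate 1 or P300 siRNA replicate 2 of the early 8-cell stage (adjusted p from 0.0154 to 0.0460). The test of a difference between the 4-cell and late 2-cell stages called 1 of the 9 genes, beside 4.28% of all genes. That between the early 8-cell and 4-cell stages called 0 of 9, beside 0%, and that between the late and early 8-cell stages 2 of 9, beside 6.63%.

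The promoter of Stat6 is shown because this gene went to 0 counts in controls. It lies on the plus strand at chr10:127642736-127642954 of GRCm38.p6 (RefSeq; the files were made on build mm9, whose coordinates were not used), and the 219 bases end where the annotated gene begins. Capitals mark its 5 CpG dinucleotides.
Stat6 promoter: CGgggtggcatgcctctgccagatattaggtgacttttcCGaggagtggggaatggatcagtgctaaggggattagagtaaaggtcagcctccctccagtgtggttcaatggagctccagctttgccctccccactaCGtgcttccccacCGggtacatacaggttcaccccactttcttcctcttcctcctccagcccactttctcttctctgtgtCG
The full 300-base RefSeq window around the start site held 8 CpG dinucleotides, against a median of 7 over 32851 mouse promoter windows. A GAS motif, the letters TTCNNNGAA (the same on both strands) to which STAT dimers bind, was looked for in the 12 promoter windows of the 9 genes. It was found in 1 of the 12, that of Socs3, a share near the 8.30% of all windows that hold it. The match lies 154 bases before the start site. The 30 bases printed, with the motif in capitals, are on the minus strand at chr11:117969501-117969530 of GRCm38.p6.
Socs3 promoter: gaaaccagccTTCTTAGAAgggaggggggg
The related form with 4 bases between TTC and GAA was found in the window of Stat2, 210 bases before its start site, and in 6.95% of all windows. Neither letter pattern was in the Stat6 window. A match of letters is not a bound site. The gene Nab2 overlaps Stat6. No strand setting is given for the counting, so reads in the overlap could go to either gene. Nab2 had 2 and 26 counts in the 4-cell P300 siRNA libraries and 7 and 0 counts in the 4-cell controls, and did not pass at any of the 4 stages.

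**Figure D3:**
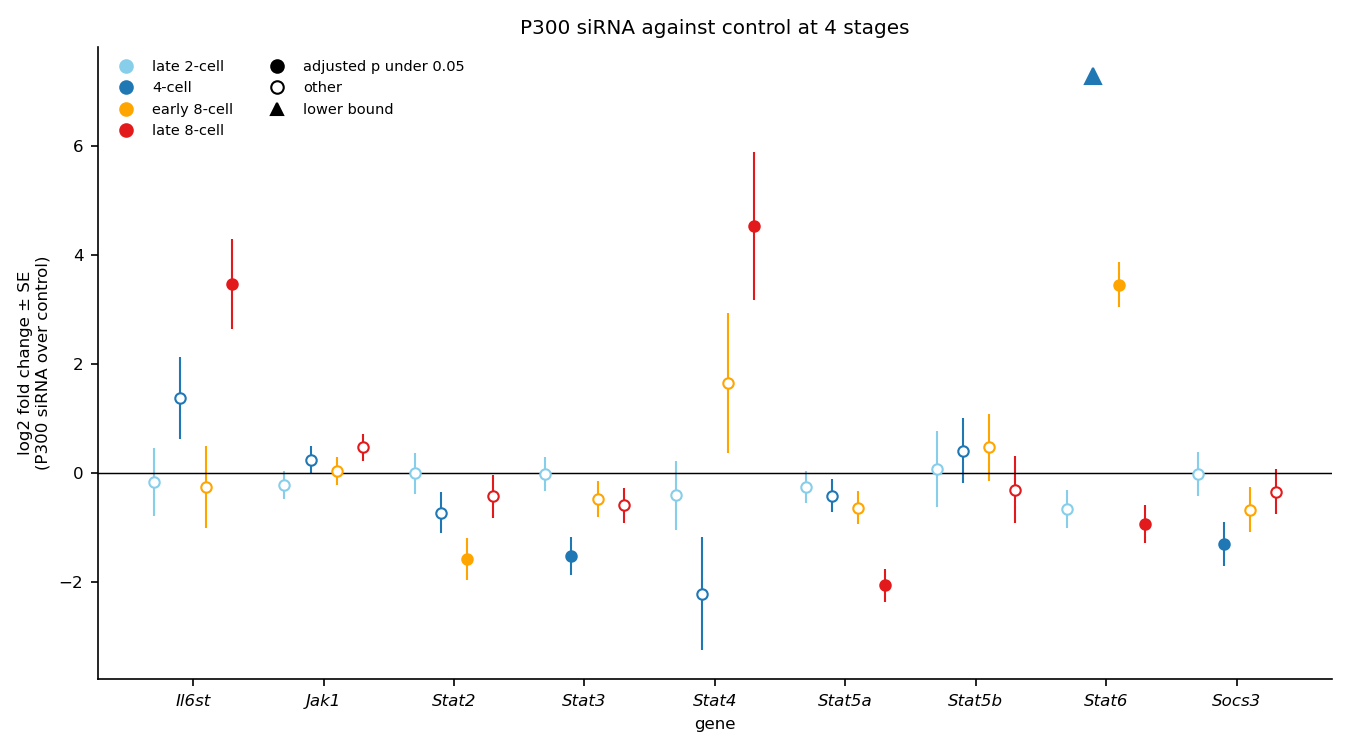
Log2 fold change ± SE of P300 siRNA over control (y axis) for the 9 genes at 4 stages (colours, earliest at the left). Filled points have an adjusted p under 0.05, and the triangle for Stat6 at the 4-cell stage is a lower bound of 7.28. Stat6 is above 0 at the 4-cell and early 8-cell stages and below 0 at the late 2-cell and late 8-cell stages.

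Of the receptor subunit and the kinase, Il6st passed at the late 8-cell stage and Jak1 did not. Il6st had 24 and 79 counts (6.37 and 3.23 CPM) in P300 siRNA embryos against 9 and 6 counts (0.462 and 0.331 CPM) in controls, without overlap (3.47 ± 0.83, adjusted p = 0.00496). The call was lost without control replicate 2 (3.25, adjusted p = 0.0566). These levels remained far under the 50.1 to 62.2 CPM of the late 2-cell libraries. At the 4-cell stage Il6st overlapped between P300 siRNA (5.02 and 1.10 CPM) and control (0.103 and 1.83 CPM), and it passed there only without control replicate 2 (4.65, adjusted p = 0.0290). Whether the siRNA effect on Il6st differed between the late and early 8-cell stages was at the threshold (3.72 ± 1.12, adjusted p = 0.0528). It passed with DESeq2 (3.98, adjusted p = 0.00748), with a replicate block (3.82, adjusted p = 0.0469) and without P300 siRNA early 8-cell replicate 1 (4.71) or late 8-cell replicate 2 (4.21).

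Jak1 had 112 and 66.4 CPM in late 8-cell P300 siRNA embryos against 64.8 and 63.0 CPM in controls. The libraries did not overlap, but replicate 1 stood well above the other 3 and the difference did not pass (0.47 ± 0.25, adjusted p = 0.176). It was 0.80 without P300 siRNA replicate 2, and passed in the limma fit on log2(FPKM + 1) (0.85, adjusted p = 0.0190). That fit applies no TMM scaling. TMM set the library size above the total counts in both P300 siRNA libraries and below it in both controls. The part of this scaling in the larger FPKM change was not tested. At the 3 earlier stages Jak1 differed by -0.22 ± 0.25, 0.24 ± 0.25 and 0.04 ± 0.25, none of which passed.

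Stat3 was lower at the 4-cell stage, with 2.65 and 2.80 CPM in P300 siRNA embryos against 5.78 and 9.76 CPM in controls and no overlap (-1.52 ± 0.35, adjusted p = 0.00735). The call was lost without control replicate 2 (-1.08, adjusted p = 0.0981), with only the 4 libraries compared (-1.50, adjusted p = 0.277) and on log2(FPKM + 1) (-0.64, adjusted p = 0.128). At the early 8-cell stage the Stat3 values overlapped, with 6.61 and 3.90 CPM against 5.91 and 8.79 CPM. At the late 8-cell stage they did not, with 10.9 and 10.1 CPM in P300 siRNA embryos and 17.1 and 14.5 CPM in controls, but the difference did not pass (-0.60 ± 0.32, adjusted p = 0.175). Socs3, the feedback inhibitor that binds Il6st and JAK kinases and is itself a Stat3 target, was lower at the 4-cell stage as well. It had 22.6 and 30.0 CPM in P300 siRNA embryos and 43.9 and 86.0 CPM in controls (-1.30 ± 0.41, adjusted p = 0.0400). This call was lost without control replicate 2 (-0.73) and without either P300 siRNA replicate (-1.12 without the first, -1.53 without the second). It was also lost with only the 4 libraries compared (-1.29, edgeR adjusted p = 0.159). The same held on log2(FPKM + 1) (-0.98, limma adjusted p = 0.122) and log2(FPKM + 0.1) (-1.05, limma adjusted p = 0.130). At the early 8-cell stage the P300 siRNA libraries (26.7 and 26.3 CPM) were just under the lower control (28.9 and 55.4 CPM), and at the late 8-cell stage the groups overlapped.

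Stat2, the STAT of type I interferon signalling, was lower at the early 8-cell stage. It had 15.4 and 12.5 CPM in P300 siRNA embryos and 31.5 and 52.3 CPM in controls, without overlap (-1.58 ± 0.39, adjusted p = 0.00924). The call was lost without control replicate 2 (-1.17, adjusted p = 0.109), without P300 siRNA replicate 2 (-1.45, adjusted p = 0.0749) and on log2(FPKM + 1) with or without the unmatched column (-0.23 and -0.73). At the 4-cell stage Stat2 overlapped between groups, and it passed there only without P300 siRNA replicate 1 (-1.47, adjusted p = 0.0375). In late 8-cell controls Stat2 stood below early 8-cell controls (-1.48 ± 0.38, adjusted p = 0.00852), a call lost without early 8-cell replicate 2 (-1.07) and without late 8-cell replicate 1 (-1.53) or 2 (-1.42). Apof overlaps Stat2 and held at most 46 counts in any library.

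Stat5a was lower with P300 siRNA at the late 8-cell stage. In late 8-cell embryos it had 41 and 238 counts (10.9 and 9.72 CPM) with P300 siRNA against 830 and 779 counts (42.6 and 43.0 CPM) in controls, far apart and each group tight (-2.06 ± 0.30, adjusted p = 0.000103). Under the 11 alternatives, which include leaving out each of the 4 libraries, this call was kept. At the 3 earlier stages Stat5a differed by -0.25 ± 0.29, -0.42 ± 0.30 and -0.64 ± 0.30, each with both P300 siRNA libraries under both controls and none past the threshold. Between the late and early 8-cell stages the siRNA effect differed by -1.42 ± 0.42 (adjusted p = 0.0492), which was lost under 13 of 16 alternatives, among them leaving out any 1 of the 8 libraries (-1.22 to -1.61). Its neighbour Stat5b did not pass at any stage. At the late 8-cell stage it had 2 and 147 counts (0.531 and 6.00 CPM) in P300 siRNA embryos against 88 and 85 counts (4.52 and 4.69 CPM) in controls, so the P300 siRNA replicates lay on both sides of the controls. Without P300 siRNA replicate 2, Stat5b was lower (-3.10, adjusted p = 0.0197), and the late against early 8-cell difference in its siRNA effect passed as well (-3.57, adjusted p = 0.0356).

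Stat4 was called higher in late 8-cell P300 siRNA embryos on few counts, 6 and 13 (1.59 and 0.531 CPM) against 1 and 0 (0.0513 and 0 CPM) in controls. The fitted change of 4.52 ± 1.36 (adjusted p = 0.0193) depends on the prior count of the fit. The ratio of the summed counts, scaled for library size, was 25.3, with an exact 95% interval of 4.02 to 1051 that covers counting error only. The call was lost without control replicate 1 (6.44) or 2 (3.76) and without P300 siRNA replicate 1 (3.92). Both libraries were under the late 2-cell level of Stat4, which was 44.9 and 44.4 CPM with P300 siRNA and 64.4 and 54.4 CPM in controls.

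Other features of the late 8-cell P300 siRNA libraries moved with the rises of Il6st and Stat4, and their part in these results was not tested. At an equal depth of 3202332 counts, 15920 and 16801 genes were expected to have a count in the P300 siRNA libraries against 14477 and 14422 in the controls, and 16684 to 16967 in the 4 late 2-cell libraries. The 10 preimplantation markers summed to 3569 and 4312 CPM in the P300 siRNA libraries against 9197 and 8680 CPM in the controls. Most of each sum was Dppa3, with a mean of 3305 CPM in P300 siRNA embryos and 6999 CPM in controls. Zp3 (15.0 against 8.43 CPM) and Nlrp5 (2.74 against 1.48 CPM) were higher with P300 siRNA, and the other genes of the list were lower. The 8 immune markers summed to 47.0 and 50.2 CPM against 8.68 and 8.55 CPM. Almost all of that sum was Cd68, a lysosomal protein, with a mean of 46.2 CPM in P300 siRNA embryos and 7.14 CPM in controls, and the other 7 markers averaged at most 1.38 CPM each in either group. Laptm5 had 29 counts in all in P300 siRNA embryos and 12 in controls, and Csf1r 28 and 18. Lyz2 had 8 counts in P300 siRNA embryos and 6 in controls, Itgam 1 and 2, Ptprc 1 and 0, and Cd3e 0 and 1. Marker sums also moved at the earlier stages where Stat6, Stat3, Socs3 and Stat2 were called, and their part in those results was not tested. The preimplantation sums were 6846 and 5581 CPM with P300 siRNA against 11110 and 9753 CPM in controls in 4-cell embryos, and 5344 and 5334 CPM against 10230 and 11817 CPM in early 8-cell embryos. Most of these sums was again Dppa3, with means of 5443 against 9094 CPM and 4670 against 9538 CPM. Zp3 and Khdc3 in 4-cell embryos and Ooep in early 8-cell embryos were higher with P300 siRNA, and the rest of the list was lower. The immune sums were 27.5 and 20.2 CPM with P300 siRNA against 9.60 and 5.36 CPM in controls in 4-cell embryos, and 38.1 and 19.9 CPM against 11.7 and 11.6 CPM in early 8-cell embryos, with Ptprc and Cd3e at 0 in all of these groups. Most of these sums was Cd68, with means of 22.7 against 5.10 CPM and 27.8 against 9.91 CPM. Lyz2 and Laptm5 were higher with P300 siRNA at both stages. Itgam was lower at both, and Csf1r was lower in early 8-cell embryos. Each of these averaged at most 1.11 CPM. With DESeq2 size factors in place of TMM, the median change over all genes at the late 8-cell stage moved by 0.14 on the log2 scale. All 4 late 8-cell calls kept their direction under that scaling, though Stat6 did not pass (edgeR adjusted p = 0.0890).

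The I1394G and NaCr groups were each set against P300 siRNA embryos and against control embryos of the late 8-cell stage. These comparisons share libraries, so their values stand side by side and no overlap between them is counted. In I1394G against P300 siRNA embryos 3 of the 9 genes passed, Stat4, Jak1 and Il6st, all lower, beside 10.8% of all genes. In NaCr against P300 siRNA embryos 3 passed, Stat5a higher and Jak1 and Il6st lower, beside 15.3% of all genes. In I1394G against control embryos 2 passed, Stat3 and Stat5a, both lower, beside 3.17% of all genes. In NaCr against control embryos 0 passed with edgeR, beside 1.57% of all genes, and 2 had an unadjusted p under 0.05. Here DESeq2 called Stat3 and Stat5a lower, and edgeR did so with only the libraries compared, together with a rise of Socs3. Between I1394G and NaCr embryos 0 of the 9 and 0% of all genes passed with edgeR, while 323 genes, 0 of the 9 among them, had an unadjusted p under 0.05.

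**Figure D4:**
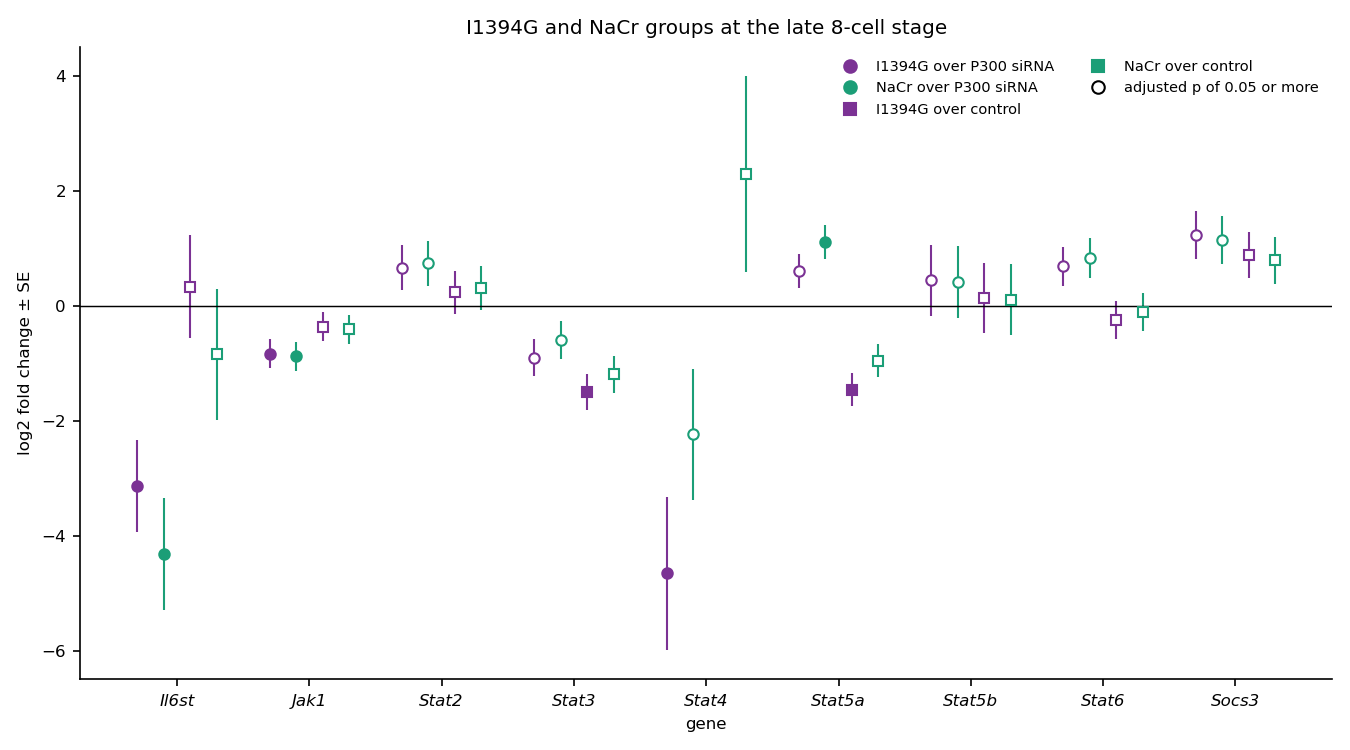
Log2 fold change ± SE (y axis) of the I1394G and NaCr groups over P300 siRNA (circles) and over control (squares) for the 9 genes at the late 8-cell stage. Filled symbols have an adjusted p under 0.05. Il6st and Jak1 are lower in both groups than in P300 siRNA embryos, and Stat5a lies above P300 siRNA and below control in both. Stat4 in I1394G over control is not drawn, since each group had 1 count.

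Il6st had 0.715 and 0.308 CPM in I1394G embryos and 0.198 and 0.249 CPM in NaCr embryos, against 6.37 and 3.23 CPM in P300 siRNA embryos. Both groups were lower than P300 siRNA embryos without overlap (-3.14 ± 0.80, adjusted p = 0.0172 for I1394G and -4.32 ± 0.97, adjusted p = 0.00600 for NaCr), and neither passed against controls. The I1394G call was lost without either I1394G replicate (-3.82 and -2.63) or without P300 siRNA replicate 1 (-2.65), and the NaCr call without NaCr replicate 1 (-4.13). Jak1 had 44.4 and 54.9 CPM in I1394G embryos and 54.6 and 41.4 CPM in NaCr embryos, against 112 and 66.4 CPM in P300 siRNA embryos. The differences were -0.83 ± 0.25 (adjusted p = 0.0423) and -0.88 ± 0.25 (adjusted p = 0.0255). Both calls on Jak1 turned on P300 siRNA replicate 1, without which the values were -0.41 and -0.46, and both were also lost without either replicate of the I1394G (-0.68 and -0.99) or NaCr group (-1.10 and -0.69). Stat4 had 0 and 1 counts in I1394G embryos and 4 and 0 counts in NaCr embryos, against 6 and 13 in P300 siRNA embryos. The ratio of the summed Stat4 counts of I1394G over P300 siRNA, scaled for library size, was 0.0351, with an exact 95% interval of 0.000846 to 0.221 (adjusted p = 0.0324 in the fit), and this call was lost without P300 siRNA replicate 1 and without either I1394G replicate.

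Stat5a had 16.5 and 14.6 CPM in I1394G embryos and 19.9 and 24.4 CPM in NaCr embryos, with 10.9 and 9.72 CPM in P300 siRNA embryos and 42.6 and 43.0 CPM in controls. The 4 groups therefore did not overlap. Against P300 siRNA the difference was 0.60 ± 0.29 (adjusted p = 0.196) for I1394G and 1.11 ± 0.30 (adjusted p = 0.0171) for NaCr, the second lost without NaCr replicate 2 (0.96), without either P300 siRNA replicate (1.19 and 1.03) and without a filter on low counts. Against controls it was -1.46 ± 0.29 (adjusted p = 0.00922) for I1394G and -0.95 ± 0.29 (adjusted p = 0.108) for NaCr. The I1394G call was lost without any 1 of the 4 libraries (-1.37 to -1.55). Between I1394G and NaCr embryos Stat5a differed by -0.51 ± 0.29 (adjusted p = 1), so a difference between the groups was not shown.

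Stat3 did not follow the order of Stat5a. It had 5.15 and 6.03 CPM in I1394G embryos and 7.46 and 6.34 CPM in NaCr embryos, both groups below the 10.9 and 10.1 CPM of P300 siRNA embryos and the 17.1 and 14.5 CPM of controls. Against controls the difference was -1.50 ± 0.32 (adjusted p = 0.0147) for I1394G, a call lost without any 1 of the 4 libraries (-1.37 to -1.62), and -1.19 ± 0.32 (adjusted p = 0.0697) for NaCr. Against P300 siRNA embryos it was -0.90 ± 0.33 (adjusted p = 0.0816) and -0.59 ± 0.33 (adjusted p = 0.231). Socs3 ran the other way, with 43.3 and 28.1 CPM in I1394G embryos and 28.2 and 39.1 CPM in NaCr embryos, above both the 7.96 and 21.2 CPM of P300 siRNA embryos and the 21.4 and 17.4 CPM of controls. Neither Socs3 difference from P300 siRNA passed (1.23 ± 0.42, adjusted p = 0.0655 for I1394G and 1.14 ± 0.42, adjusted p = 0.0729 for NaCr over P300 siRNA). Both differences from P300 siRNA passed without P300 siRNA replicate 2, at 2.17 (adjusted p = 0.0134) for I1394G and 2.08 (adjusted p = 0.0146) for NaCr, and with no filter on low counts (1.25 and 1.15), and that of I1394G also with DESeq2 (1.16, adjusted p = 0.0432). Against controls neither passed, except with only the libraries compared (0.95, adjusted p = 0.00880 for I1394G and 0.87, adjusted p = 0.0259 for NaCr).

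Stat6 had 37.3 and 42.7 CPM in I1394G embryos and 46.0 and 42.4 CPM in NaCr embryos, against 21.0 and 28.3 CPM in P300 siRNA embryos and 39.2 and 56.0 CPM in controls. Both groups were above P300 siRNA without overlap, and both overlapped the controls. The differences from P300 siRNA did not pass (0.69 ± 0.34, adjusted p = 0.205, and 0.83 ± 0.34, adjusted p = 0.109). Stat2 and Stat5b did not pass in any of these comparisons. Stat5b had 4.80 and 5.33 CPM in I1394G embryos and 4.82 and 5.10 CPM in NaCr embryos, and passed against P300 siRNA only without P300 siRNA replicate 2 (3.24 and 3.21).

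The other genes of the pathway were read from a list of 70 ligands, receptors, kinases, inhibitors and targets, of which 60 were tested. In P300 siRNA against control embryos, 0 of these 60 genes passed at the late 2-cell stage, 4 rose and 8 fell at the 4-cell stage, 8 rose and 11 fell at the early 8-cell stage, and 12 rose and 13 fell at the late 8-cell stage. Over all genes tested, 7.77% rose and 7.25% fell at the 4-cell stage, 8.21% rose and 8.30% fell at the early 8-cell stage, and 13.6% rose and 14.3% fell at the late 8-cell stage. These shares are the background for the parts of the list as well. The list was chosen with earlier results of these data known, so counts of its genes are descriptions and show no excess. Among the 15 targets tested, 5 fell and 2 rose at the 4-cell stage, 6 fell and 2 rose at the early 8-cell stage, and 7 fell and 2 rose at the late 8-cell stage. Myc, a growth regulator and target of Stat3 in embryonic stem cells, averaged 4.90 ± 0.558 CPM in P300 siRNA embryos against 47.1 ± 5.79 CPM in controls at the 4-cell stage (SD, n = 2 each; -3.27 ± 0.45, edgeR adjusted p = 0.000224). At the early 8-cell stage Myc averaged 7.13 ± 1.97 CPM against 150 ± 19.1 CPM (-4.39 ± 0.46, edgeR adjusted p = 1.42e-05). Klf4, a pluripotency factor downstream of LIF in mouse embryonic stem cells, changed by -2.01 ± 0.31 and -2.35 ± 0.31 at these stages, and the kinase gene Pim3 by -1.79 ± 0.30 at the 4-cell stage. Ptpn2, a phosphatase that removes phosphate from JAK and STAT proteins, was lower at the early 8-cell stage (-0.92 ± 0.19).

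At the late 8-cell stage 7 of the 18 receptors tested rose and 1, Csf3r, fell, while of the 15 inhibitors 2 rose and 3 fell, beside 13.6% of all genes higher and 14.3% lower. Ifngr1, the ligand-binding subunit of the interferon gamma receptor, averaged 43.9 ± 6.60 CPM in P300 siRNA embryos against 8.56 ± 1.15 CPM in controls (SD, n = 2 each; 2.35 ± 0.33). Irf1, a transcription factor induced by interferon gamma, averaged 18.1 ± 4.50 CPM against 0.312 ± 0.285 CPM (5.81 ± 0.63). Tfcp2l1, a pluripotency factor and Stat3 target in mouse embryonic stem cells, averaged 31.2 ± 8.41 CPM against 304 ± 16.8 CPM (-3.30 ± 0.42). Jak2 rose (1.18 ± 0.29) and Tyk2 fell (-1.12 ± 0.32) among the kinases. The siRNA effect differed between the late and early 8-cell stages for 8 of the 60 genes, beside 6.63% of all genes, with Ifngr1 (3.42 ± 0.45), Irf1 (4.13 ± 0.83) and Tfcp2l1 (-2.40 ± 0.56) at the lowest adjusted p.

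**Figure D5:**
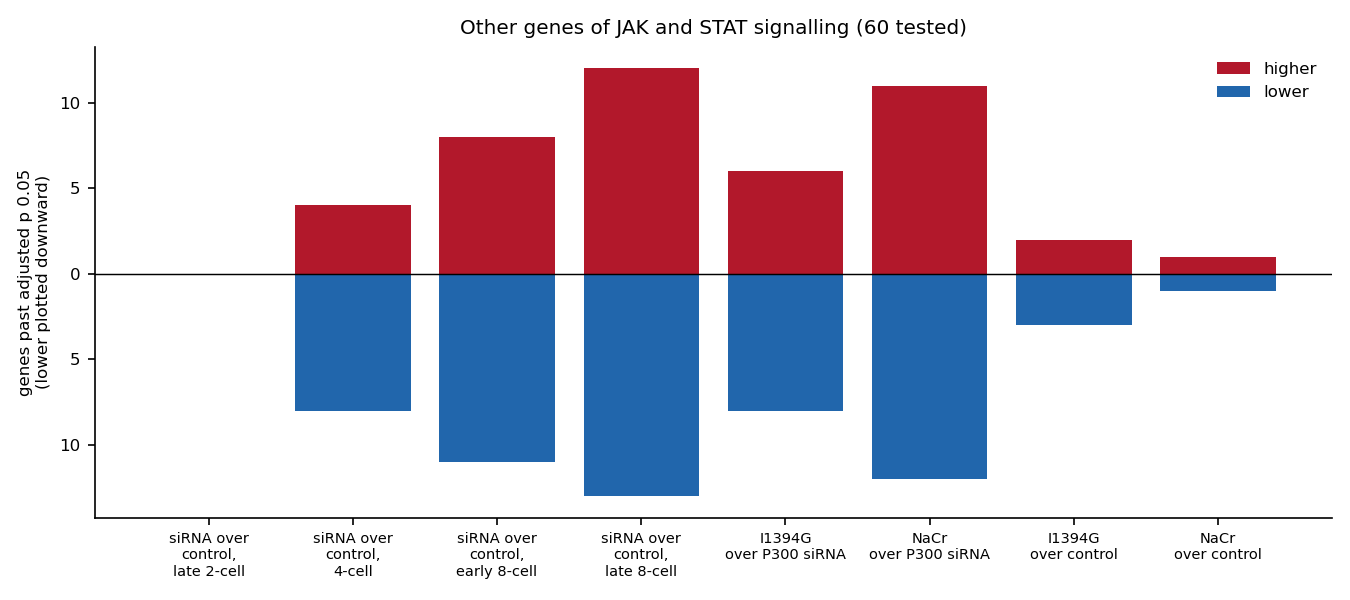
Number of other JAK and STAT pathway genes past an adjusted p of 0.05 (y axis), out of 60 tested, higher (up) or lower (down) in 8 comparisons (x axis). The counts are 0 at the late 2-cell stage, 12 higher and 13 lower at the late 8-cell stage, and 1 higher and 1 lower in NaCr over control.

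In I1394G against P300 siRNA embryos 6 of the 60 genes rose and 8 fell, beside 6.19% and 4.58% of all genes. In NaCr against P300 siRNA embryos 11 rose and 12 fell, beside 8.77% and 6.57% of all genes. Irf1 averaged 3.42 ± 0.223 CPM in I1394G embryos and 2.51 ± 2.14 CPM in NaCr embryos (SD, n = 2 each), lower than in P300 siRNA embryos (-2.41 ± 0.50 and -2.78 ± 0.52) and higher than in controls (3.39 ± 0.61 and 3.02 ± 0.62). Tfcp2l1 averaged 84.5 ± 9.23 CPM and 95.2 ± 21.4 CPM in the same groups, between P300 siRNA and control embryos. Against controls Tfcp2l1 was lower in both (-1.85 ± 0.39 and -1.67 ± 0.39). Socs5 (-3.25 ± 0.54) and the prolactin receptor Prlr (-2.72 ± 0.59) were lower in I1394G than in P300 siRNA embryos. In NaCr over P300 siRNA embryos Jak2 was lower (-1.64 ± 0.30) and Pim1 higher (1.84 ± 0.37). Against controls 2 genes rose and 3 fell with I1394G, beside 3.17% of all genes called, and 1 rose and 1 fell with NaCr, beside 1.57%, with 0 of 60 between I1394G and NaCr. In controls 10 rose and 22 fell between the late 2-cell and 4-cell stages, beside 27.0% and 34.2% of all genes. Between the 4-cell and early 8-cell stages 0 passed, beside 1.13% of all genes, and 5 rose and 13 fell to the late 8-cell stage, beside 15.0% and 11.2%.

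The genes whose levels ran most like each of the 9 were named by the Pearson correlation of mean log2 CPM over the 10 groups, a description of groups that share stages, given without a p. For Stat6 these were Camsap3, Rtraf and Twf2 (r = 0.987, 0.977 and 0.975). Rtraf averaged 111 CPM in 4-cell P300 siRNA embryos and 53.2 CPM in 4-cell controls, and Twf2 averaged 15.2 and 5.97 CPM, so both were lowest in the controls of that stage as Stat6 was. For Stat3 they were Oaz2, Plekha2 and Fyb2 (r from 0.978 to 0.987), and for Stat5a Prkce, Wdfy2 and Pafah2 (r from 0.959 to 0.973). For Socs3 they were Itpkc, Pim1 and Hinfp (r from 0.899 to 0.918), which was the weakest likeness of the 9. For Stat4 (Abca9, Dpp10 and Tshz2), Il6st (Ubp1, Atp11a and Prrg1) and Jak1 (Mapre2, Gpat4 and Daam1), r was between 0.987 and 0.998, set largely by the fall after the late 2-cell stage. Stat2 ran most like Khdc1a, Gabrp and Phex, and Stat5b most like Teddm1b, Rpl30 and Dhx37.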

How the data were processed

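RNA was measured in 20 libraries from mouse embryos, prepared by Smart-seq2 per the labels' protocols. The authors deposited raw counts per gene, without normalisation, and FPKM (fragments scaled by transcript length and sequencing depth). Per the submitters' processing notes the tools were HISAT2 2.2.1, Cufflinks 2.2, cutadapt 4.1 and bcl2fastq 2.20.0.422, on build mm9. No settings or strand use are given.

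The counts were analysed here in R 4.3.3 with edgeR 4.0.16, using the default low-count filter, TMM scaling and 1 coefficient per group over 20 libraries (10 residual and 7.98 prior degrees of freedom). P300 siRNA was tested against control at each stage, both treated groups against siRNA, control and each other, successive control stages, and stage differences of the siRNA effect. The SE is the log2 fold change over the square root of F. The test was tested on simulated data. Library totals of 3202332 to 24785201 counts set the precision. FPKM columns were compared with counts over 7134 genes with a mean count over 200.

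The 9 genes, the pathway list and the markers were chosen with earlier results of these data known. Named beside the 9 were Ep300, up to 3 pathway genes per comparison with the lowest adjusted p, the 3 genes most like each member, and overlapping neighbours. Csf3r, Jak2 and Tyk2 at the late 8-cell stage and Cd68 were named after their values were seen. The counts of 1 immune marker are not reported here. Alternatives were DESeq2 1.42.0 (size factors, Wald test), no filter, limma 3.58.1 on log2(FPKM + 1) and log2(FPKM + 0.1) with at least 1 FPKM in 2 libraries, only the libraries compared, a replicate block and leaving out each library. A limma fit without the unmatched FPKM column was added after the data were seen. Over 45 pairs of groups the deviations of same-numbered libraries had a median correlation of 0.00105, a highest value of 0.431 and were over 0.1 in 5. The labels do not say that a number marks a shared batch, and not every pair was over 0.1, so the numbers were not taken to pair the libraries.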

Additional observations from a re-analysis of the deposited data

Results flagged for a closer look

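The siRNA effect on 3 of the 9 genes differed between stages by the test of the difference itself (edgeR, adjusted over all genes). For Stat6 the joint test over the 4 stages gave an adjusted p of 8.43e-06 and the 4-cell against late 2-cell test 9.36e-06. Both use 4-cell values known when the genes were chosen, so they are no independent support. The late against early 8-cell test gave 0.000669, and this call was lost on log2(FPKM + 1) (limma adjusted p = 0.140). Stat6 was higher in both P300 siRNA libraries than in both controls at the 4-cell and early 8-cell stages, and lower in both at the late 2-cell and late 8-cell stages. The late 2-cell difference did not pass. The late 8-cell call was lost without any 1 of its libraries, with DESeq2 size factors and on log2(FPKM + 1), so a fall at these stages was not firmly shown. For Stat5a the joint test gave 0.0182 and the late against early 8-cell test 0.0492, with the widest gap at the late 8-cell stage (-2.06 ± 0.30). The joint call on Stat5a was lost without late 8-cell control replicate 1 or 2, P300 siRNA late 8-cell replicate 2 or late 2-cell control replicate 1. It was also lost with no filter on low counts (adjusted p = 0.0541), on log2(FPKM + 0.1) (0.0687) and with only the libraries compared (0.0523). For Stat4 the joint test gave 0.0395, on at most 15 counts in any library after the late 2-cell stage. That call was lost without any 1 of the 4 late 2-cell libraries, either late 8-cell control, P300 siRNA late 8-cell replicate 1 or P300 siRNA 4-cell replicate 1. It was also lost on log2(FPKM + 1) (limma adjusted p = 0.152, and 0.115 without the unmatched column) and log2(FPKM + 0.1) (0.0823). With only the libraries compared the edgeR adjusted p was 0.0554. No group has more than 2 libraries, so single libraries were not tested as outliers.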

How the results depend on the processing

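Over the 9 genes and all comparisons, 1622 alternative log2 fold changes were computed, of which 1478 kept the direction and the side of the threshold, 99 lost a call, 45 gained one and 0 called results changed sign. The counts below are of the 9 genes called, where they moved by over 1.5 times, and the cause was not tested. On log2(FPKM + 1) the count was 1 for P300 siRNA at the 4-cell stage, 0 at the early 8-cell stage (1 without the unmatched column), 1 for I1394G against control, 0 for early 8-cell against 4-cell controls (0 without that column), 2 for late against early 8-cell controls (3 without it) and 1 for the late against early 8-cell difference in siRNA effect. On log2(FPKM + 0.1) these counts were 1, 0, 1, 0, 3 and 0, and the joint stage test gave 1. With only the libraries compared the count was 1 for P300 siRNA at the 4-cell stage, 1 for I1394G against P300 siRNA, 3 for NaCr against control, 0 for early 8-cell against 4-cell controls, 1 for the late against early 8-cell difference and 1 in the joint test. DESeq2 gave 5 for I1394G against P300 siRNA, 2 for NaCr against control, 2 for the 4-cell against late 2-cell difference and 1 for the early 8-cell against 4-cell difference. No filter gave 2 for early 8-cell against 4-cell controls and 1 for the early 8-cell against 4-cell difference. Leaving out a library, with the spread pooled over groups and a lone library taken to vary like the others, gave 1 to 2 for P300 siRNA at the early 8-cell stage and 1 to 5 at the late 8-cell stage, 0 to 5 for I1394G and 1 to 4 for NaCr against P300 siRNA, 0 to 2 for I1394G against control, and 2 to 4 for late against early 8-cell controls. For the differences in siRNA effect it gave 1 to 2, 0 to 1 and 1 to 3 in stage order, and 1 to 5 in the joint test. With the replicate block the counts at the 4 stages were 0, 3, 2 and 4, as without it, while the late against early 8-cell difference of Stat5a was lost (adjusted p = 0.0533), that of Il6st was gained (3.82, adjusted p = 0.0469) and Socs3 in I1394G against P300 siRNA was gained (1.31, adjusted p = 0.0495). Over all genes, P300 siRNA calls numbered 2494 (59 to 3218 over the alternatives) at the 4-cell, 2741 (165 to 3495) at the early 8-cell and 4645 (2215 to 5185) at the late 8-cell stage, with 1 (0 to 508) at the late 2-cell stage. They numbered 1789 (449 to 2571) for I1394G and 2546 (912 to 3321) for NaCr against P300 siRNA, 527 (56 to 4031) and 261 (12 to 2263) for these against control, and 0 (0 to 20) between them. Control stage calls numbered 10163 (8349 to 10282), 187 (70 to 928) and 4346 (2010 to 4938). Stage differences of the siRNA effect numbered 710 (43 to 1454), 0 (0 to 296) and 1100 (204 to 1921), with 2703 (1030 to 4473) in the joint test. With DESeq2 size factors the share of calls that were higher was 45.3% against 57.5% with TMM for I1394G over P300 siRNA, and 60.9% against 45.4% for the late against early 8-cell difference. That scaling moved the median of all genes by -0.25 on the log2 scale between the late 2-cell and 4-cell controls. Depth limits the values with few counts. These include Stat4 and Il6st after the late 2-cell stage and Stat6 in the 4-cell and early 8-cell controls. They also include Stat5b in late 2-cell embryos (38 counts in all in controls and 32 with P300 siRNA) and in P300 siRNA late 8-cell replicate 1.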
